A study of Mus musculus with 6 samples.

Results

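The 35 genes described here are transcripts that type I interferon induces. They were taken from the gene column of the deposited expression table by symbol, and all 35 of them were found among its 23361 genes and were tested by the authors, as were 14858 genes in all. The choice used the names of the genes and no measured value of this table, but it was made with earlier results of these data known. RNA had been sequenced from sorted satellite cells, which are muscle stem cells, in 3 wild-type and 3 AUF1-null samples. Mice were 4 months old, on a mixed C57BL/6 and 129 background; hindlimb muscle was digested with collagenase and sorted for Sdc4, a proteoglycan of the cell surface. AUF1, encoded by Hnrnpd, binds AU-rich stretches of mRNA and regulates their decay. The labels describe neither the null allele nor its deleted part.

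The table compares a condition named q1 with a condition named q2. No label says which one is the AUF1-null condition, so each direction below compares q2 with q1 and names no genotype. The name of the table mentions wild type first and knockout second, but nothing in it ties that order to q1 and q2. There is 1 value per gene and condition, pooled by the authors over its samples. The headings name no unit, but the layout is that of Cuffdiff, which writes FPKM (fragments per kilobase of transcript, scaled by the fragments mapped). No SD and no n can therefore stand beside a gene, and the only tests are the p-values of Cuffdiff, run by the authors, and the q-values made from them by adjustment over all tested genes. A gene is called here, and said to rise or fall, when its deposited q is below 0.05. Hnrnpd, the targeted gene, had 7.5 in q1 and 5.59 in q2 in the deposited table of the authors (q = 0.999), and so does not identify the knockout. Satellite cell markers were present but Pax7, their defining transcription factor, was low (1.16 and 0.85), while Fabp4 of endothelial cells stood at 14386 and 12031.5 in the table the authors deposited.

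Type I interferons are cytokines that cells release when they sense foreign nucleic acid. They bind the receptor formed by IFNAR1 and IFNAR2, whose kinases JAK1 and TYK2 activate STAT proteins; STAT2 acts with IRF9 in a complex that binds the interferon-stimulated response element of target promoters. The targets include sensors of viral RNA, enzymes that degrade or modify RNA, proteins that block viral entry and translation, and IRF7, which drives a further wave of interferon production. Myeloid and lymphoid cells carry many of these transcripts, and stem cells of several tissues hold a basal level of some of them.

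Of the 35 interferon response genes, Oasl1 and Irf7 rose in q2 and none fell. They make up 5.71% of the 35, beside 0.498% of all tested genes called higher and 0.114% called lower in the authors' deposited table. At an unadjusted Cuffdiff p below 0.05, 10 of the 35 were higher (28.6%) and none was lower, beside 3.72% and 2.27% of all tested genes. The 35 genes had a median log2 fold change of 0.53, with 27 above 0 and 8 below, while the median over all tested genes was -0.01 and 48.7% of those lay above 0. In all, 17 of the 35 (48.6%) were over 1.5-fold higher in q2 and none was over 1.5-fold lower, beside 13.9% and 11.8% of the 14779 tested genes above 0 in both conditions. In such sorted bulk samples, more cells of a type and more RNA per cell cannot be told apart.

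**Figure D1:**
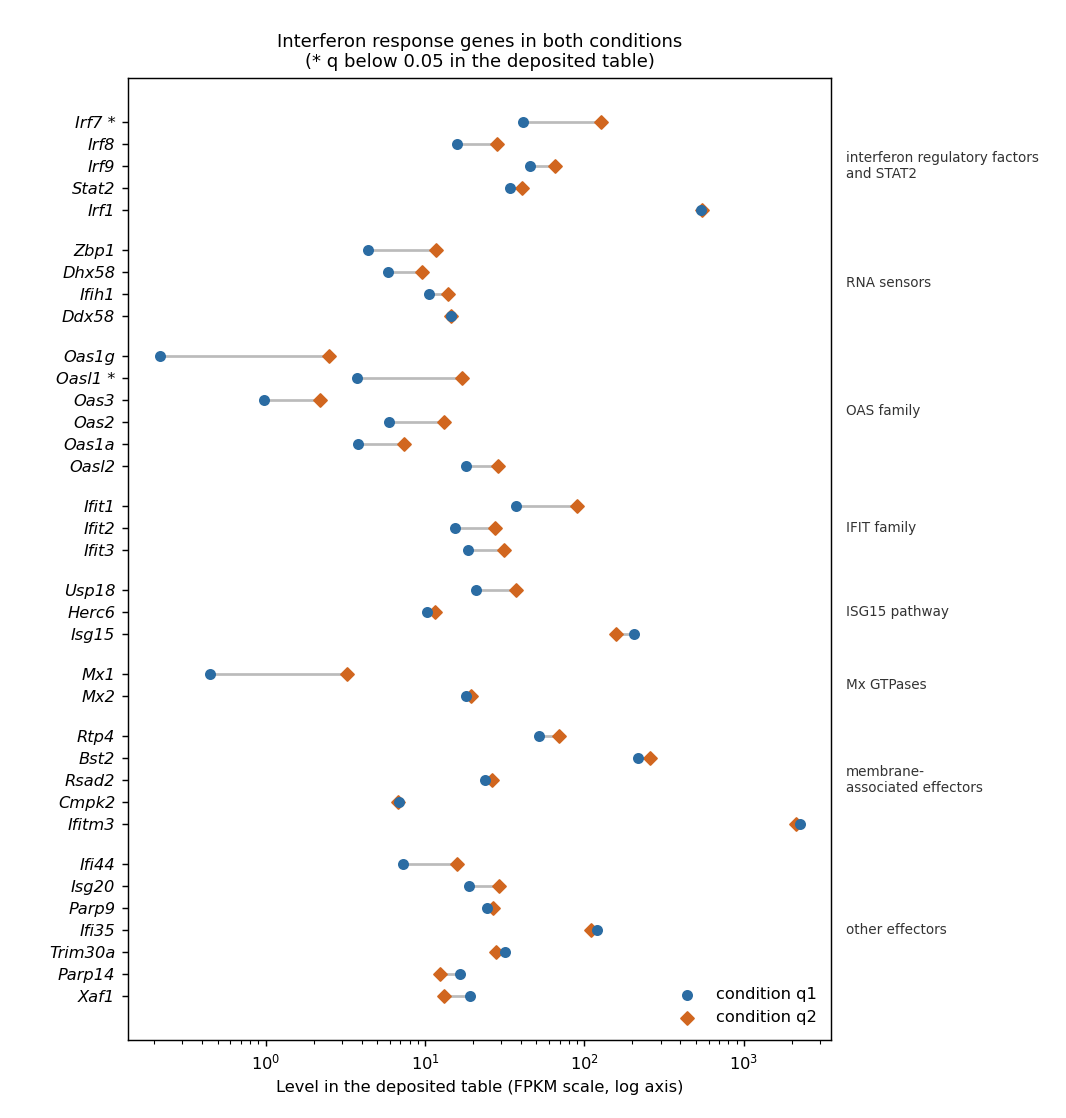
Level of each of the 35 interferon response genes in condition q1 (circles) and q2 (diamonds), on a log axis in the FPKM scale of the deposited table, ordered by role. Each point is the authors' pooled value, so there is no error bar; Oas1g and Mx1 are lowest in q1, and Irf1 and Ifitm3 lie at nearly the same level in both conditions.

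The interferon regulatory factors and STAT2 all lay above 0, by very different amounts. Irf7, at chr7:141263183-141266424 in GRCm38, was listed by the authors' deposited table at 41.4 in q1 and 127 in q2. This is a 3.07-fold rise with a log2 fold change of 1.62, with the smallest p and q in the authors' table, shared by 69 genes (Cuffdiff p = 5e-05, q = 0.0108). IRF7 is itself an interferon target and, once phosphorylated, the main activator of interferon alpha genes. Irf8, a factor that monocytes and dendritic cells need to develop, stood at 15.8 in q1 and 28.1 in q2 and missed the threshold (log2 fold change 0.83, p = 0.0222, q = 0.627 in the authors' deposited table). Irf9, the DNA-binding partner of the STAT complex, had 45.5 and 65.5 there, and Stat2 33.9 and 40.7, neither with a p below 0.05. Irf1, a factor that interferon gamma and NF-kB also induce, was the second most abundant of the 35 genes with 536 in q1 and 542 in q2. Thus Irf7 went from rank 8 to rank 5 among the 35 levels, while Irf1 kept rank 2. The annotated exons of Irf7 share 45 bases with Phrf1 on the opposite strand, which is 1.19% of them; Phrf1 itself had 10.2 and 9.15 in the table from the authors.

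The OAS family held the other gene that rose. OAS enzymes bind double-stranded RNA and make short oligoadenylates that activate RNase L. Mouse OASL1 lacks this synthetase activity and is known as a repressor of Irf7 translation. Oasl1, at chr5:114923240-114937911, went from 3.76 in q1 to 17.1 in q2 in the authors' deposited table, a 4.55-fold rise (log2 fold change 2.18, Cuffdiff p = 5e-05, q = 0.0108). It moved from rank 32 to rank 21 among the 35 levels. Its neighbour and relative Oasl2, at chr5:114896934-114912245, had 18.0 and 28.6, which is 1.59-fold and did not pass (p = 0.0958 by Cuffdiff in the authors' table). Whether the 2 genes differ in their change was not tested.

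All 6 OAS genes among the 35 were over 1.5-fold higher in q2, and their summed level went from 32.8 to 70.9. The table also holds Oas1b (4.58 in q1 and 9.22 in q2) and Oas1c (1.45 and 1.97), which are not among the 35. Oas1c was 1.36-fold higher, and neither had a Cuffdiff p below 0.05. Oas1g, which encodes an oligoadenylate synthetase of the Oas1 cluster, had the largest log2 fold change of the 35 genes, 3.53, but from a very low level of 0.22 in q1 to 2.51 in q2 (p = 0.0029, q = 0.240 in the authors' deposited table). With a pseudocount of 1 its 11.5-fold difference became 2.88-fold, below the 3.80-fold of Oasl1 on that scale. Oas2 had 5.98 and 13.1, with a log2 fold change of 1.13 (p = 0.0083, q = 0.410 in the authors' deposited table). Oas3 had 0.97 and 2.19, and Oas1a 3.82 and 7.42, both with p above 0.05. Oas1a and Oas1g are near copies: 57.6% of the 50-base stretches of the longest coding Oas1a transcript also occur in transcripts of Oas1g, so reads may have been shared and their single values are uncertain. No 50-base stretch of the Oasl1, Oasl2 or Oas2 transcript occurs in another gene.

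These 6 OAS genes all lie on chromosome 5, as does Hnrnpd. Oasl1 and Oasl2 are 14.9 Mb from it, and Oas2, Oas3, Oas1g and Oas1a 20.8 to 20.9 Mb. On a mixed strain background, alleles of linked genes can differ between genotypes together with the targeted gene, and the part of this linkage in the result was not tested. Of the 29 members on other chromosomes, 21 lay above 0 and Irf7 alone was called, with a median log2 fold change of 0.26 in place of 0.53 for all 35.

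Promoters are shown for 6 of these genes: Irf7 and Oasl1 because they rose, Oas1g and Oas1a because they are near copies, Ifit1 because it was the most abundant gene with a p below 0.05 and a motif match, and Isg15 because it holds the most matches without being higher. Each stretch is the 150 bases before the annotated gene start, on the strand of the gene, from the RefSeq annotation of GRCm38.p6. Capitals mark matches to the core of the interferon-stimulated response element, searched on both strands as GAAA, any 2 bases and GAAA; on the opposite strand it reads as TTTC, any 2 bases and TTTC. The stretches lie at chr7:141266425-141266574 (minus strand), chr5:114923090-114923239 (plus), chr5:120887614-120887763 (minus), chr5:120907526-120907675 (minus), chr19:34640739-34640888 (plus) and chr4:156200819-156200968 (minus).
Irf7: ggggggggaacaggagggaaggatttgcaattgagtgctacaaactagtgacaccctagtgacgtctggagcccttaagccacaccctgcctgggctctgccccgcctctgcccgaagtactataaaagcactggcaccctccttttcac
Oasl1: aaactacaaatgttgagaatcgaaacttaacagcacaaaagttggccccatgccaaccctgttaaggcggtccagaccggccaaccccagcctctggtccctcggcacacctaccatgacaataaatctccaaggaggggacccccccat
Oas1g: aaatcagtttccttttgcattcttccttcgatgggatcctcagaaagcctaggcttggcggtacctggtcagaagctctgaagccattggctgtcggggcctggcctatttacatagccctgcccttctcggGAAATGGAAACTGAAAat
Oas1a: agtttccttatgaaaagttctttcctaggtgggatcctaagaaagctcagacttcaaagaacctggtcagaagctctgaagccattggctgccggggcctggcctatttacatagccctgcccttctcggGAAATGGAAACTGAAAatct
Ifit1: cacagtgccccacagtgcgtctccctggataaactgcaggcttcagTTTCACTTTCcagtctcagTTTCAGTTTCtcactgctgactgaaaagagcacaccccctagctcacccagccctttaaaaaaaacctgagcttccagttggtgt
Isg15: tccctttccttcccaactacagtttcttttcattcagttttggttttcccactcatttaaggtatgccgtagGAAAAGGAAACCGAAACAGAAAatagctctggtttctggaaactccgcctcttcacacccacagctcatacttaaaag
Both Oas1 stretches carry the same pair of overlapping matches, and 81.1% of 148 aligned bases are identical between them. Isg15 carries 3 overlapping matches and Ifit1 a pair on the opposite strand. Irf7 and Oasl1, the 2 genes that rose, hold no match in the 300-base window that was searched, from 250 bases before to 50 bases after the start; this says only that these letters are not in the window.

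A promoter was found for 26 of the 35 genes. A match to the response element core was present in 13 of them, or 50%, beside 3.99% of all 27025 genes with a promoter in the RefSeq table and 3.83% of the 10783 tested genes among these. Since the 35 genes were listed for their known response to interferon, this share describes the list and is no finding on the conditions. The 13 genes with a match had a median log2 fold change of 0.26, with 9 above 0, and the 13 without one had a median of 0.64, with 10 above 0. A p below 0.05 was found for 2 genes with a match and 5 without one. The core of the gamma-activated site, TTCNNNGAA, which reads the same on both strands, was in 8 of the 26 promoters, or 30.8%, beside 9.55% of all genes with a promoter. Among these 8 were Irf1 and Irf8; the called genes Irf7 and Oasl1 held no copy.

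**Figure D2:**
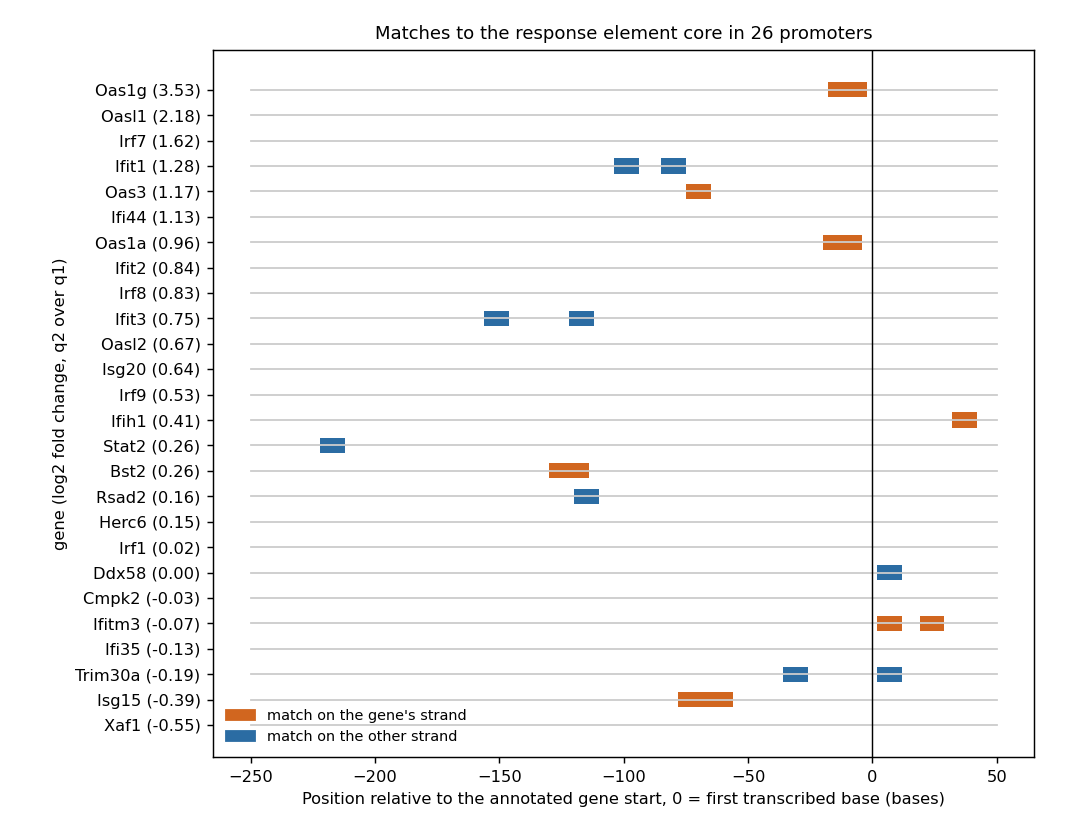
Matches to the response element core (bars 10 bases long) from 250 bases before to 50 bases after the annotated start of 26 interferon response genes, ordered by log2 fold change from q1 to q2, which stands in brackets. Matches occur in 13 genes from Oas1g (3.53) to Isg15 (-0.39), and not in Oasl1 or Irf7; genes with several annotated starts are drawn on 1 line.

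The 3 IFIT genes had higher values in q2, from 1.68-fold to 2.44-fold. IFIT proteins bind viral RNA ends and the translation machinery. The deposited table of the authors puts Ifit1 at 37.0 in q1 and 90.1 in q2 (log2 fold change 1.28, p = 0.0087, q = 0.427). Ifit2 had 15.4 and 27.6 (log2 fold change 0.84, p = 0.0303, q = 0.725 in the authors' deposited table), and Ifit3 had 18.7 and 31.3 with a p above 0.05. None of the 3 was called. Their summed level went from 71.0 to 149. Ifit3 shares 51.2% of its 50-base stretches with its near copy Ifit3b and is therefore uncertain, while Ifit2 shares none.

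The RNA sensors ran from nearly level to 2.67-fold higher in q2, with none called. Zbp1, which senses nucleic acids in the Z conformation and can trigger necroptosis, had the largest difference among them, from 4.41 in q1 to 11.8 in q2, but its p was 0.0708 in the authors' deposited table. Dhx58, the regulator LGP2, had 5.89 and 9.60 there. Ifih1, which encodes the long-RNA sensor MDA5, had 10.5 and 13.9. Ddx58, which encodes RIG-I, stood at 14.5 in both conditions. Its log2 fold change of -0.00206 turns positive after centring on the median of all tested genes, the only such change of sign among the 35.

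In the ISG15 pathway, 2 genes lay above 0 and 1 below, and none was called. ISG15 is a ubiquitin-like modifier, HERC6 the mouse ligase that attaches it, and USP18 the protease that removes it and also dampens receptor signalling. Isg15, among the 4 most abundant of the 35 genes in both conditions, was lower in q2, at 205 and 157, without passing (log2 fold change -0.39, p = 0.353 in the authors' deposited table). Usp18 had 20.8 and 37.4 (log2 fold change 0.84, p = 0.0320, q = 0.730 in that table by the authors). Herc6 had 10.3 and 11.5 there, and 23.8% of its 50-base stretches lie in an overlapping transcript, Gm45193.

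The Mx GTPases, which trap viral nucleoproteins, differed in level and in fold. Mx1 had 0.45 in q1 and 3.25 in q2, a log2 fold change of 2.85 from a very low level (p = 0.0221, q = 0.627 in the authors' deposited table), and with a pseudocount of 1 the factor fell from 7.20 to 2.93. Mx2 had 18.2 and 19.3 there. RefSeq lists both genes as transcribed pseudogenes in the C57BL/6J reference, whose Mx1 allele is known to be defective, while GENCODE vM21 lists Mx1 as protein-coding and Mx2 as a polymorphic pseudogene; the strain at this locus in each sample was not examined here.

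Effectors that act at membranes were the most abundant group and differed little. Ifitm3, which blocks fusion of viruses with endosomes, was the highest of all 35 genes with 2230.25 in q1 and 2131 in q2 of the authors' deposited table. Bst2, or tetherin, which holds budding virions on the cell surface, had 215 and 257, and Rtp4, a chaperone of receptors, 51.7 and 69.4. Rsad2, the radical SAM enzyme viperin, had 23.7 and 26.5, and its genomic neighbour Cmpk2, a mitochondrial nucleotide kinase, 6.86 and 6.72. None of these 5 had a p below 0.05 in that table, and their log2 fold changes ran from -0.07 to 0.42.

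The other effectors split, with 3 above 0 and 4 below. Ifi44 had 7.27 and 15.9 (log2 fold change 1.13, p = 0.0211, q = 0.611 in the authors' deposited table), and Isg20, an RNA exonuclease, 18.8 and 29.2 with a p above 0.05. Parp9, an ADP-ribosyltransferase partner of DTX3L, had 24.3 and 26.7; its exons share 458 bases with Dtx3l on the opposite strand. Lower in q2 were Ifi35 (121 and 110.4), the E3 ligase gene Trim30a (31.5 and 27.7), Parp14 (16.5 and 12.4) and Xaf1, an antagonist of the apoptosis inhibitor XIAP (19.3 and 13.1). Xaf1 had the lowest log2 fold change of the 35 genes, -0.55, and none of these 4 had a p below 0.05 in the authors' deposited table.

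**Figure D3:**
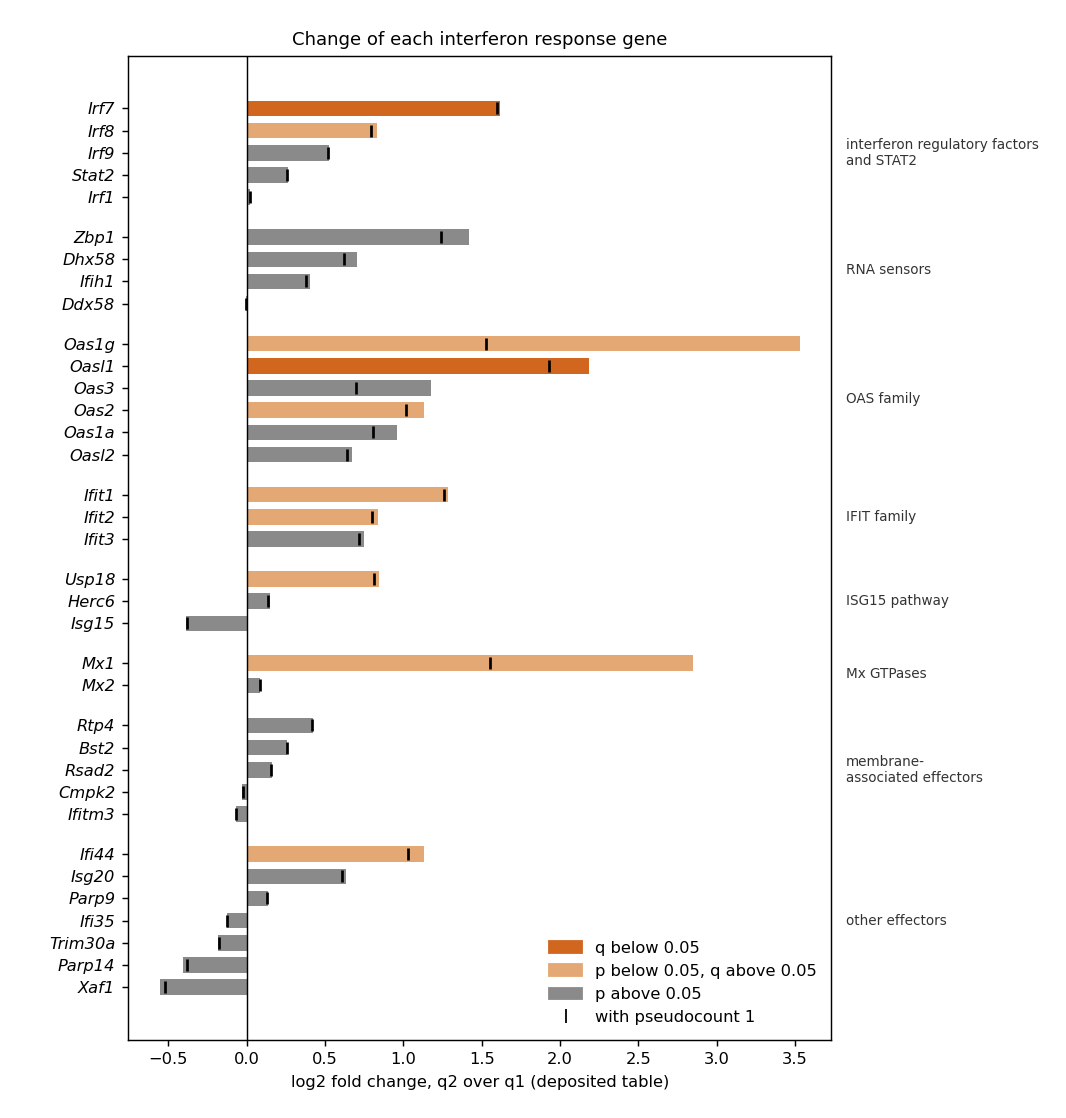
Log2 fold change of q2 over q1 for each of the 35 interferon response genes in the deposited table, ordered by role, coloured by the authors' p and q; black ticks give the value with a pseudocount of 1. Oasl1 (2.18) and Irf7 (1.62) are the only genes with a q below 0.05, and the ticks of Oas1g and Mx1 stand far below the ends of their bars because both are near 0 in q1.

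The median log2 fold change was larger among the less abundant of the 35 genes, but single genes departed from this. The 17 genes with the lower mean levels had a median log2 fold change of 0.84 and the 18 with the higher mean levels one of 0.34. With a pseudocount of 1 these medians were 0.70 and 0.34. Irf7 (1.62) is among the 18, and Xaf1 (-0.55) among the 17. Oasl1, Oas1a, Oas1g, Oas2 and Oas3 of chromosome 5 are also among the 17, and the part of linkage here was not tested. Spearman's rho between mean level and log2 fold change was -0.43 over the 35 genes and 0.03 over 14779 tested genes above 0 in both conditions; the points of each are genes of the same 2 pooled values, not independent replicates. Over 1.5-fold higher in q2 were 10 of the 17 genes with the lower mean levels and 7 of the 18 with the higher ones. Ifitm3 and Irf1, the most abundant of all, were nearly level, and the summed level of all 35 was 3832 in q1 and 4027 in q2.

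Upstream of the response, almost no interferon transcript was seen. Of 16 type I interferon genes in the table, 11 were listed at 0 in both conditions, and Ifnb1 alone was tested, with 0.64 in q1 and 0.23 in q2 (p = 0.428 in the authors' deposited table). The receptor genes Ifnar1 (20.4 and 20.003) and Ifnar2 (44.6 and 34.5) did not pass in the authors' deposited table. Of 9 receptor and JAK-STAT genes none was called, and 3 lay above 0; the most abundant were the feedback inhibitor gene Socs3 (423 and 339) and Jak1 (66.1 and 56.7). At an unadjusted p below 0.05, only Ptpn6, a phosphatase of blood cells, was higher (14.0 and 34.1 in the authors' deposited table). Of 13 tested genes that sense nucleic acid and signal to interferon, none was called, 8 lay above 0, and only Irf5, a factor of myeloid cells, had a p below 0.05 (7.82 and 17.5 in that table). The adaptor genes Myd88 (96.4 and 100.7) and Tmem173, which encodes STING (74.1 and 87.6), were the most abundant among them. Ptpn6 and Irf5 were chosen for naming after their values were seen.

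Among 40 further interferon-induced genes, 3 rose and none fell. In the table of the authors, Ifi27l2a, which encodes a small interferon-induced membrane protein, rose 5.89-fold, with 55.5 in q1 and 327 in q2. Slfn4, a Schlafen gene of myeloid cells, had 4.75 and 22.9, and Ms4a4c 1.21 and 10.97, with the same Cuffdiff q of 0.0108 for all 3 genes by the authors. The median log2 fold change of the 40 was 0.23, with 29 above 0. At an unadjusted p below 0.05, 7 were higher and none lower. Plac8, among these 7 and also in the list of inflammatory monocyte markers below, lies on chromosome 5 only 0.6 Mb from Hnrnpd. It had 8.97 in q1 and 39.2 in q2 (p = 0.0008, q = 0.105 by Cuffdiff in the authors' table). The part of linkage in its difference was not tested.

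Most genes listed here for interferon gamma lay below 0 in log2 fold change. Ifng itself, a cytokine of T and natural killer cells, stood at 0 in q1 and at 1.34 in q2 and was called (q = 0.0108 in the authors' deposited table). Both values are low and the fold is not finite, so the size of this difference cannot be stated. Ifng was the only gene called of the 21 in this list. The name of the list does not mean that interferon gamma alone induces its genes. Of the 20 above 0 in both conditions, 15 lay below 0 in log2 fold change, with a median of -0.36, and at an unadjusted p below 0.05 none besides Ifng was higher and 5 were lower. These 5, named after their values were seen, are Gbp5, Gbp6, Ido1, Gbp4 and Igtp. Gbp4 and Gbp6 lie on chromosome 5, at 5.1 and 5.3 Mb from Hnrnpd and nearer to it than the OAS genes, and the part of this linkage was not tested either. Gbp5, a guanylate-binding protein, had 15.8 and 5.07 (p = 0.0008 and q = 0.105 by Cuffdiff in the authors' table), and Ido1, which degrades tryptophan, had 16.5 and 6.24 (q = 0.357 there). Irf1, which both interferon types induce, lay near 0, as given above. Whether the type I and type II genes differ in their change was not tested.

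**Figure D4:**
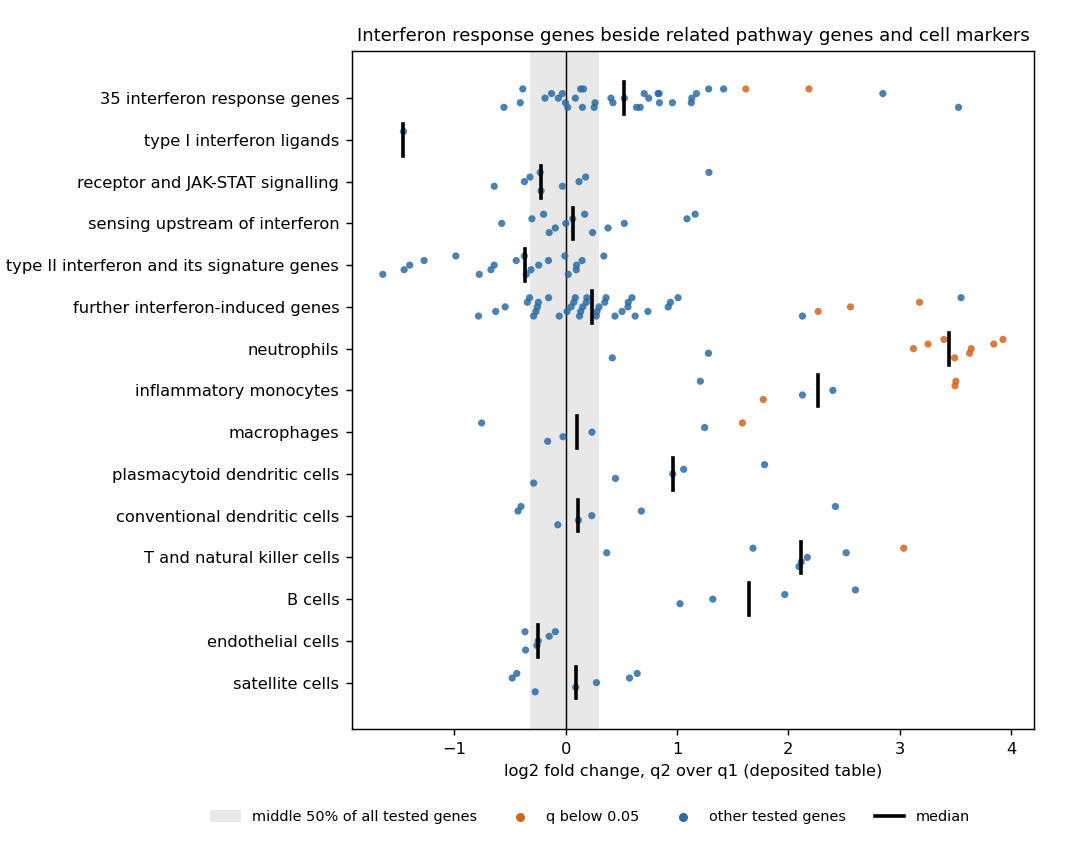
Log2 fold change of q2 over q1 for the 35 interferon response genes, 5 lists of related pathway genes and 9 lists of cell markers in the deposited table; each point is a tested gene above 0 in both conditions, bars are list medians and the grey band holds the middle 50% of all tested genes. The interferon response genes (median 0.53) lie above the type II list (-0.36), and the neutrophil (3.44) and inflammatory monocyte (2.26) markers lie highest; Ifng has no finite value and is not drawn.

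Most neutrophil markers and some inflammatory monocyte markers rose in q2, where Oasl1 and Irf7 rose too. Neutrophil markers rose in 8 of 10 cases in the authors' deposited table, among them S100a8 and S100a9, and their summed level was 1166 in q1 and 15080.1 in q2. Of 6 inflammatory monocyte markers 3 rose (summed level 283 and 1024), and of 6 macrophage markers Tyrobp alone. Of 7 T and natural killer cell markers Nkg7 alone rose (3.37 in q1 and 27.6 in q2), and the 7 summed to 6.58 and 37.7. The macrophage list lay on both sides, with 3 markers above 0, 3 below and a median log2 fold change of 0.11; its summed level of 1000.04 and 2082 is carried by Lyz2 (633 and 1504) and Tyrobp (115 and 347), while Csf1r had 83.8 and 49.7 in the authors' table. None was called among 5 tested of 6 plasmacytoid dendritic cell markers, 7 conventional dendritic cell markers or 4 B cell markers. Their summed levels were, in that order, 41.2 and 81.0, 53.1 and 46.1, and 12.8 and 43.4. Siglech, which defines plasmacytoid dendritic cells, a main source of interferon alpha, had 10.3 and 14.1 in the authors' table. In the same list Cox6a2 had 24.7 and 48.0, which is the larger part of the list's summed level in both conditions. That sum is therefore mostly 1 gene and does not measure these cells. Of the 5 tested markers, 4 lay above 0 and Ccr9 (0.48 and 0.40) lay below. Ly6d had 5.02 and 17.3 (p = 0.0140, q = 0.525 by Cuffdiff in the authors' table). Cd79a of B cells had 4.93 and 19.3. None of these markers was at 0 in either condition. Endothelial markers summed to 16124 in q1 and 13526.5 in q2, with all 6 below 0 and none called. Most of that sum is Fabp4 (14386 and 12031.5). Satellite cell markers summed to 317 and 385, with 4 above 0, 3 below and none of 7 called. The largest part of this sum is Sdc4 (173 and 270), which was used for sorting. Below 0 in log2 fold change were Pax7 (-0.44), Itga7 (-0.27) and Vcam1 (-0.48). Irf7 and Irf8 are also expressed by monocytes and dendritic cells, Bst2 marks plasmacytoid dendritic cells and Slfn4 myeloid cells. The part of these cell types in the differences of the interferon response genes was not tested.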

How the data were processed

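The labels describe 3 wild-type and 3 AUF1-null samples. Cufflinks 2.2.1 and TopHat2 2.0.9 are named in the submitters' processing notes; the sources used here do not give the annotation, strand setting or library normalization. The authors deposited 1 table in the column layout of Cuffdiff, with 1 value on the FPKM scale per condition, although the headings name no unit. It also holds the deposited log2 fold change, a test statistic that is a score and was not used, and deposited p-values and q-values. Sequencing depth is unknown, and no value per sample was analysed here, so no SD, test between samples, leave-one-out or paired fit was made. If samples of a group were not separate mice, which the labels do not say, the p-values measure technical spread.

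The notes name mm9, but 99.9% of 13873 tested genes matched by symbol and chromosome overlapped their GENCODE vM21 gene in GRCm38, as did all 35 genes described; positions are given in GRCm38 with 1 added to the start. The deposited q equalled a Benjamini-Hochberg adjustment over the 14858 genes with status OK within 0.001 for all of them, and the log2 fold change that of both values within 0.001 for all 35 genes. The adjustment was tested on simulated data.

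The 35 genes and all lists were chosen with earlier results of these data known. Named in full were genes called or with a deposited p below 0.05 among the 35. From each other list the rule allowed up to 4 called genes, or the 2 with the highest mean, besides Hnrnpd, Ifnb1, Ifng, Ifnar1 and Ifnar2. Not all genes of the rule are reported here. Alternatives were other thresholds, a minimum of 1 FPKM or 2-fold, pseudocounts of 0.1 and 1 and centring. Leaving out genes that share over 20% of their 50-base stretches with another gene (4 of 35), or those of chromosome 5, was added after the data were seen. Motifs were searched in RefSeq promoters, and transcripts and 3' UTRs were taken from GENCODE vM21. The search of 3' UTRs was not among the analyses planned at first. Protein identity within the OAS, IFIT and Mx families, planned at first, was not analysed here. Scripts used Python 3.11.15, pandas 2.3.3, numpy 2.4.6, scipy 1.17.1 and matplotlib 3.10.9.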

Additional observations from a re-analysis of the deposited data

How the results depend on the processing

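The 2 calls, Oasl1 and Irf7, were also counted with a q below 0.1, with at least 1 FPKM and p adjusted again (q = 0.0118 for each), with at least 2-fold, without genes at 0, and without genes that share sequence. With a q below 0.01 there were 0 calls, since the smallest deposited q is 0.0108, and with an unadjusted p below 0.05 there were 10. Without the genes of chromosome 5 there was 1. No gene of the 35 was called lower under any of these settings. The median log2 fold change of 0.53 was 0.53 with a pseudocount of 0.1, 0.52 with a pseudocount of 1, 0.54 after centring, 0.42 without the genes that share sequence and 0.26 without those of chromosome 5; it was the same for genes of at least 1 FPKM. Of 56 genes followed under both pseudocounts and centring, Ddx58 alone changed sign, after centring, where 28 of the 35 lay above 0. No paired analysis was possible because the table holds 1 pooled value per condition, and leaving out single replicates could not be done for the same reason. Depth is unknown, so genes near 0 such as Oas1g, Mx1, Oas3 and Ifng carry an error that cannot be stated.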

Other observations

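AUF1 binds AU-rich stretches in 3' UTRs, and the 3' UTRs of the interferon response genes were searched for the heptamer TATTTAT on the strand of the mRNA, taking the longest 3' UTR annotated for a gene. It was present in 7 of 35 genes, or 20%, beside 29.7% of 13045 tested genes with a 3' UTR. The 7 genes are Ifi44, Ifih1, Ifit1, Irf8, Mx1, Oas3 and Usp18, all with a log2 fold change above 0 and a median of 1.13. Of the 28 genes without the heptamer, 20 lay above 0, with a median of 0.26. Neither Oasl1 nor Irf7, the 2 called genes, holds it. The shorter motif ATTTA was also counted, and these 2 genes hold no copy. Most copies were in Herc6 (8, log2 fold change 0.15), Cmpk2 (7, log2 fold change -0.03) and Ifi44 (7, log2 fold change 1.13). Over all tested genes the medians were -0.07 with the heptamer and 0.01 without it. The 3' UTRs with the heptamer were longer, with a median of 1266 bases against 803 among the 35 genes, and the part of length was not tested. Whether AUF1 binds any of these transcripts was not examined here.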
